A study of Mus musculus with 6 samples.

Results

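Transglutaminases and peptidylarginine deiminases were followed in mouse skin cells of 2 genotypes, with and without the histone methyltransferases Ezh1 and Ezh2. The set was defined by name as 4 transglutaminase genes (Tgm1, Tgm2, Tgm3 and Tgm5) and 4 deiminase genes (Padi1, Padi2, Padi3 and Padi4), with every probe set that the platform annotation assigns to 1 of these genes alone. All 8 were found among the 18193 genes of the array, with 6 probe sets for Tgm2, 2 for Tgm3 and 1 for each of the others. RNA was measured on 6 Affymetrix arrays, 1 for each of 3 FACS-purified populations in each genotype. These were basal epidermal cells, the matrix cells of the hair bulb, and cells of the outer root sheath (ORS), the outer layer of the hair follicle.

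The groups are labelled Ezh1/2 WT and Ezh1/2 2KO, a knockout of both genes. Skin was taken at 14 days of age from mice of a mixed genetic background of the C57B6 and CD1 strains. The 2KO basal epidermis came from females and the other 5 samples from both sexes. The labels do not state the driver of the deletion, the exons removed, the number of mice or whether mice were pooled, and with 1 array per group no difference below has a replicate check.

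Transglutaminases are calcium-dependent enzymes that join glutamine and lysine side chains of proteins by a bond that proteases do not cut. In the outermost epidermis, Tgm1, Tgm3 and Tgm5 build the cornified envelope from loricrin, involucrin and small proline-rich proteins, while Tgm2 is a widely expressed tissue enzyme. Deiminases turn protein arginine into citrulline, which loosens filaggrin in the epidermis and trichohyalin in the inner root sheath and medulla of the hair, where the altered protein is then cross-linked by transglutaminase. Ezh1 and Ezh2 each supply the methyltransferase activity of Polycomb repressive complex 2, whose mark on histone H3 accompanies silent genes.

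Promoter sequence is shown for the members whose signals moved together in the matrix (Padi4, Padi3 and Tgm3, all lower in 2KO) and for Tgm1, higher in 2KO in all 3 populations. Each run is the 250 bases before an annotated start in RefSeq's GRCm38.p6 assembly, written 5′ to 3′ on the strand of the gene. Capitals mark matches to any of 4 short motifs. These were TATAAA on the strand of the gene, and TGANTCA (the AP-1 site), CTTTGA (the LEF/TCF core) and AGATAA (the GATA core) on both strands. The windows are chr4:140774204-140774453 for Padi4, chr4:140810649-140810898 for Padi3 and chr14:55713089-55713338 and chr14:55713493-55713742 for the 2 starts of Tgm1, all on the minus strand. That of Tgm3 is chr2:130012090-130012339 on the plus strand.
Padi4: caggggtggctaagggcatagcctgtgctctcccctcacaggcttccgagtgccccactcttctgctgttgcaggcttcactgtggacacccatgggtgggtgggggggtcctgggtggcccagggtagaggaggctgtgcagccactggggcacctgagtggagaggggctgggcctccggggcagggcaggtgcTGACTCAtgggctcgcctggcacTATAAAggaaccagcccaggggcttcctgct
Padi3: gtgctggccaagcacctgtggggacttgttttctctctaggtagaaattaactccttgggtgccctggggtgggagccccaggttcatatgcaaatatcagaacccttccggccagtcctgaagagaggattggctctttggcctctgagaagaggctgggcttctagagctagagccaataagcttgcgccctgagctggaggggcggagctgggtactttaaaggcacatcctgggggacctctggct
Tgm3: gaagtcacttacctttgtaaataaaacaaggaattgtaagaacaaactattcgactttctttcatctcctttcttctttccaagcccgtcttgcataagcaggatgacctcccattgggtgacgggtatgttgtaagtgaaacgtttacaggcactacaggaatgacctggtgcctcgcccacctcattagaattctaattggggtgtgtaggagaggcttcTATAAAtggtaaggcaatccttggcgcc
Tgm1, start 1: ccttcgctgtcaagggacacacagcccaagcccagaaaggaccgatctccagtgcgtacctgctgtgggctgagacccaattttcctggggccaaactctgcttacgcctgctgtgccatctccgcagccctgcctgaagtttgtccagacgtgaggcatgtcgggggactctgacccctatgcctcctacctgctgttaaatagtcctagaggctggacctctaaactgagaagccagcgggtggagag
Tgm1, start 2: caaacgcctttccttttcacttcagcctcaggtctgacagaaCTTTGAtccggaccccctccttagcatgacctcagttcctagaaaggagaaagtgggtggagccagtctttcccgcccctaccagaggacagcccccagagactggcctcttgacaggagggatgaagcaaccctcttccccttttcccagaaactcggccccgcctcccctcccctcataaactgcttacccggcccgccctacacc

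Padi4 holds TATAAA 31 bases and TGACTCA 54 bases before its start, and Tgm3 holds TATAAA 28 bases before its start. The window of start 2 of Tgm1 holds CTTTGA 208 bases before that start. No such letters are in the window of Padi3 or of start 1 of Tgm1. Of 32841 promoter windows of the same length, 7.59% hold TATAAA, 6.75% TGANTCA, 13.8% CTTTGA and 9.99% AGATAA, so each match is a description and not a site. The dinucleotide CG, which marks CpG islands where it is dense, occurs 3 times each in the windows of Padi3, Padi4 and Tgm5, 0 times in that of Padi1 and 17 times in that of Padi2, against a median of 6 over all windows. It occurs 6 times in that of Tgm3 and 8 and 7 times in those of Tgm1. A window was available for 7 of the 8 members.

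The values are MAS5 signals, the array's linear measure of a transcript's brightness, which cannot be compared between probe sets. Signals were read against a floor of 83.2, the median of all signals, and a gene was called at a ratio of at least 2-fold, the fold that the series text uses. A ratio with 1 signal under the floor is a lower bound, and a gene with both signals under it was not measured. The share of probe sets above it was 47.7% to 53.1% per array. The targeted genes were lower in 2KO, Ezh2 by 2.07-fold in matrix and by 5.69-fold and 5.93-fold elsewhere, and Ezh1 by 3.54-fold in matrix and at least 4.57-fold elsewhere. The basal epidermis arrays were also bright for suprabasal genes, with Krt10 at 28000 in WT and 34141 in 2KO. In the 2KO matrix, markers of several other cell types were brighter than in WT. Those of sebocytes and melanocytes were not, with summed signal of 11258 in WT and 10189 in 2KO, and of 3314 and 2239. Summed signal of 14 immune genes was 1758 in WT and 6524 in 2KO, that of 11 fibroblast genes 21519 and 41617, that of 9 skeletal muscle genes 574.5 and 3624, that of 11 basal layer genes 29319 and 50080, that of 11 suprabasal genes 21337 and 46374 and that of 11 ORS genes 21365 and 61487.

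The transglutaminases and deiminases were divided by gene and by population. Tgm1 was higher in 2KO in all 3 populations, Padi4 and Padi3 were lower in all 3, and Tgm2 and Tgm5 were higher in matrix and lower in basal epidermis and ORS. In basal epidermis 1 of 7 measured members was at least 2-fold higher in 2KO and 3 were lower, where 6.59% of all 11527 measured genes were higher and 4.09% lower. For matrix the counts were 3 of 7 higher and 3 lower, where 9.03% of 11661 genes were higher and 1.62% lower. For ORS they were 0 of 6 higher and 3 lower, where 8.16% of 11994 genes were higher and 4.75% lower. The median log2 ratio of the measured members was -0.56, -0.70 and -0.93 in the 3 populations, and that of all genes was 0.04, 0.03 and 0.01. The basal median is the ratio of Padi3 and the matrix median that of Padi1, each a bound with 1 signal under the floor. In matrix 3 members were at least 2-fold higher and 3 lower, so the median there does not describe the set as a whole. In sorted cells measured in bulk, fewer cells of a type and less RNA per cell cannot be told apart.

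**Figure D1:**
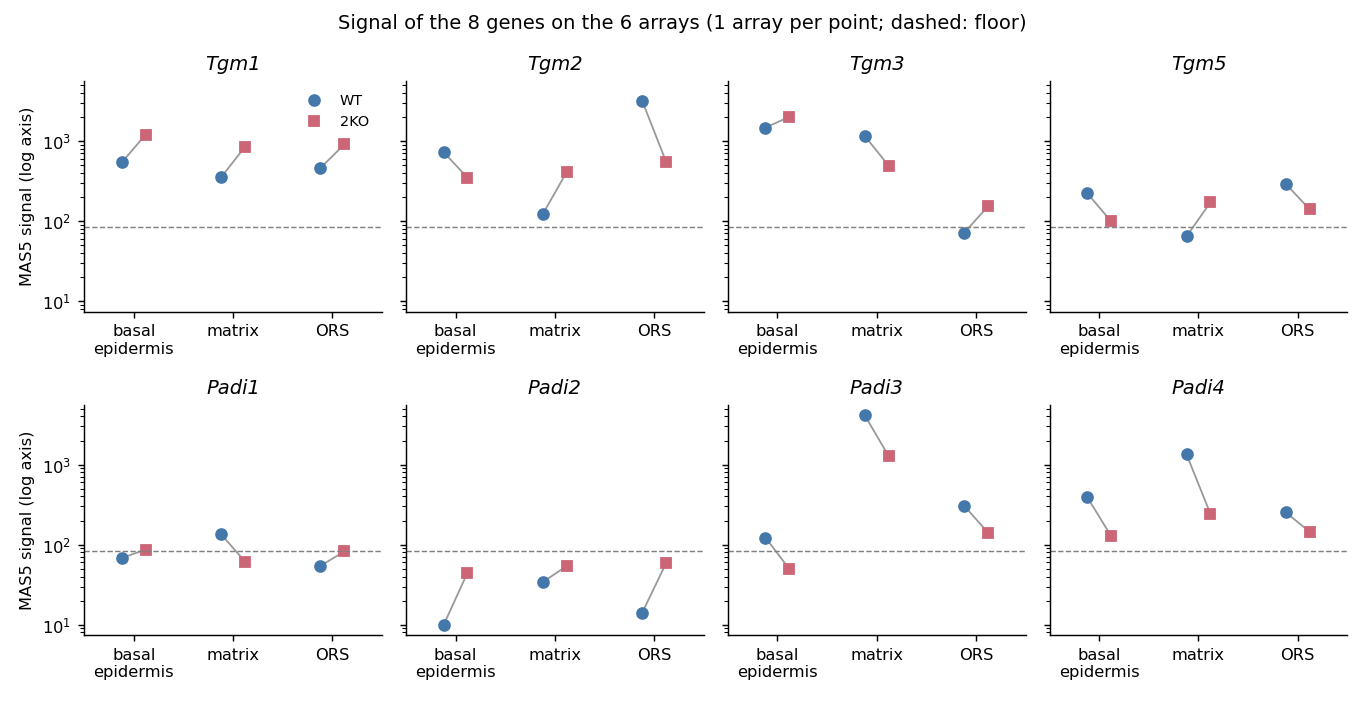
MAS5 signal (log axis) of each of the 8 genes by population, with WT as circles, 2KO as squares and 1 array per point; the dashed line is the floor of 83.2. Tgm1 is higher in 2KO in all 3 populations, Padi3 and Padi4 lower in all 3, and Padi2 lies under the floor on all 6 arrays.

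Tgm1, the membrane-anchored transglutaminase of keratinocytes and the enzyme deficient in lamellar ichthyosis, read 539.5 in basal epidermis of WT and 1201 in that of 2KO, 351.3 and 845.7 in matrix, and 459.6 and 904.5 in ORS. In each population the 2KO array was above the WT array. The 2KO signal was higher by 2.23-fold in basal epidermis and by 2.41-fold in matrix, both called, and by 1.97-fold in ORS, just under the threshold. The matrix call depended on scaling. With arrays scaled to the hybridisation controls the ratio there was 0.58 on the log2 scale, still above 0, while the median gene stood at -0.64.

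Tgm1 also varied little between populations. Its highest and lowest populations differed by 1.54-fold in WT and 1.42-fold in 2KO, and no pair of populations reached 2-fold in either genotype. Basal epidermis gave its highest signal and matrix its lowest in both genotypes.

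Tgm2, the tissue transglutaminase, read 723.8 in basal epidermis of WT and 347.6 in that of 2KO, 122.9 and 410.5 in matrix, and 3158 and 549.7 in ORS on its brightest probe set. WT ORS stood above all other arrays and WT matrix below them, while the arrays of 2KO lay close together. The 2KO signal was 2.08-fold lower in basal epidermis, 3.34-fold higher in matrix and 5.75-fold lower in ORS. The ORS ratio was among the 59 lowest of 11994 genes.

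Of the 6 probe sets that report Tgm2, 1 lay under the floor on all 6 arrays. In ORS the other 5 were all called lower in 2KO, by 3.17-fold to 7.03-fold. In matrix 4 of the 5 were called higher, and the fifth read 89.6 in WT and 89.4 in 2KO, close to the floor. In basal epidermis 2 of the 5 were called lower and 1 was above 0, with log2 ratios from -1.06 to 0.33, so the call there rests on the choice of probe set. Averaged over all 6 probe sets, the basal ratio was -0.48 on the log2 scale and not called. The probe set under the floor enters that average as no difference, and the median of the 5 measured was -0.64. Lower Tgm2 in ORS held on every probe set above the floor.

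**Figure D2:**
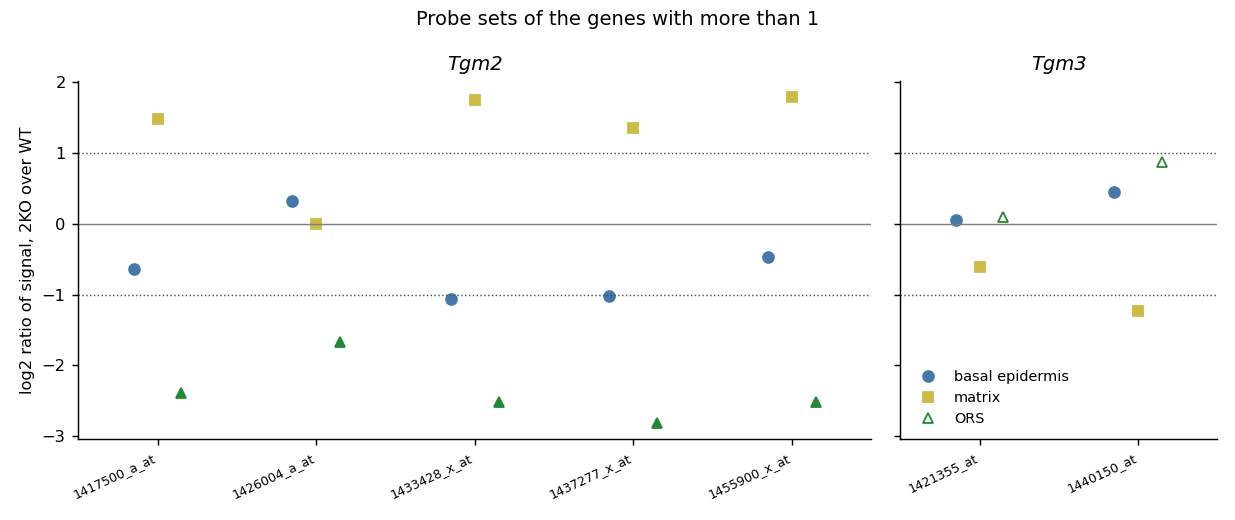
Log2 ratio of 2KO over WT for each measured probe set of Tgm2 (5) and Tgm3 (2), with circles for basal epidermis, squares for matrix and triangles for ORS; dotted lines mark 2-fold and open symbols are bounds. All 5 Tgm2 probe sets lie below the lower line in ORS, from 3.17-fold to 7.03-fold, while in basal epidermis 1 of them is above 0.

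Tgm3, the transglutaminase of the late epidermis and the hair, read 1470 in basal epidermis of WT and 1997 in that of 2KO, 1153 and 492.8 in matrix, and 70.9 and 151.8 in ORS on its brighter probe set. Basal epidermis and matrix were high and ORS low in WT, whereas in 2KO the matrix lay between the other populations. In matrix the 2KO signal was 2.34-fold lower, whereas in basal epidermis it was 1.36-fold and in ORS at least 1.83-fold higher. Its other probe set gave 213.8 in WT matrix and 140.1 in 2KO matrix, 1.53-fold lower and not called. Both probe sets were below 0 in matrix and above 0 in the other populations. On the dimmer probe set, though, 2KO was higher by only 1.03-fold in basal epidermis and at least 1.07-fold in ORS, close to no difference.

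Tgm5, which cross-links proteins in the upper epidermis and is deficient in acral peeling skin syndrome, read 222.1 in basal epidermis of WT and 99.2 in that of 2KO, 64.4 and 170.2 in matrix, and 289.4 and 139.9 in ORS. It was low in WT matrix and high on the other WT arrays, and the 2KO arrays lay between these. The 2KO signal was 2.24-fold lower in basal epidermis, at least 2.05-fold higher in matrix and 2.07-fold lower in ORS. The matrix ratio was under 2-fold under 3 other scalings, at 0.71 to 0.94 on the log2 scale. Tgm2 and Tgm5 thus took the same direction in each of the 3 populations.

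Padi4, the deiminase best known for citrullinating histones in granulocytes, read 392.7 in basal epidermis of WT and 128.1 in that of 2KO, 1341 and 243.3 in matrix, and 252.9 and 144.6 in ORS. In each population the WT array was above the 2KO array. In 2KO it was lower by 3.07-fold in basal epidermis, by 5.51-fold in matrix and by 1.75-fold in ORS, where it was not called but passed 2-fold under 3 other scalings (log2 ratios of -1.01 to -1.06). The matrix ratio was among the 3 lowest of the 11661 genes measured there. As a reading of granulocytes on these arrays, 11 genes of neutrophils and their precursors were examined. Elane, Mpo, Ngp, Camp, Ltf, Cxcr2, Mmp8 and Prtn3 lay under the floor on all 6 arrays. S100a8 and S100a9, which keratinocytes also express, accounted with Csf3r for the 1 to 3 genes of this list above the floor on an array. These were higher in 2KO where Padi4 was lower, in matrix S100a9 by at least 33.4-fold, S100a8 by 11.1-fold and Csf3r by at least 2.98-fold, and in basal epidermis S100a8 by 2.78-fold and S100a9 by 2.75-fold. The summed signal of the list went from 396.9 to 5756 in matrix, from 4478 to 12178 in basal epidermis and from 762.5 to 1239 in ORS, and its part in the result was not tested.

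Padi3, the deiminase of the hair shaft and inner root sheath whose loss is linked to uncombable hair syndrome, read 122.6 in basal epidermis of WT and 49.8 in that of 2KO, 4144 and 1282 in matrix, and 307.4 and 141.8 in ORS. Matrix was far above the other populations in each genotype, and 2KO was below WT in every population. In 2KO it was lower by at least 1.47-fold in basal epidermis, by 3.23-fold in matrix and by 2.17-fold in ORS. Among all measured genes in matrix its ratio was the 25th lowest, and that of Tgm3 the 92nd lowest.

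Padi1, a deiminase of the epidermis, was above the floor on 2 arrays, at 134.9 in WT matrix and 87.0 in 2KO basal epidermis. Its other signals lay between 54.4 and 82.2. In 2KO matrix it was lower by at least 1.62-fold, in 2KO basal epidermis higher by at least 1.05-fold, and in ORS it was not measured. Padi2, the most widely expressed deiminase, read 9.94 to 58.7 and was under the floor on all 6 arrays, so that no difference in it was detectable.

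**Figure D3:**
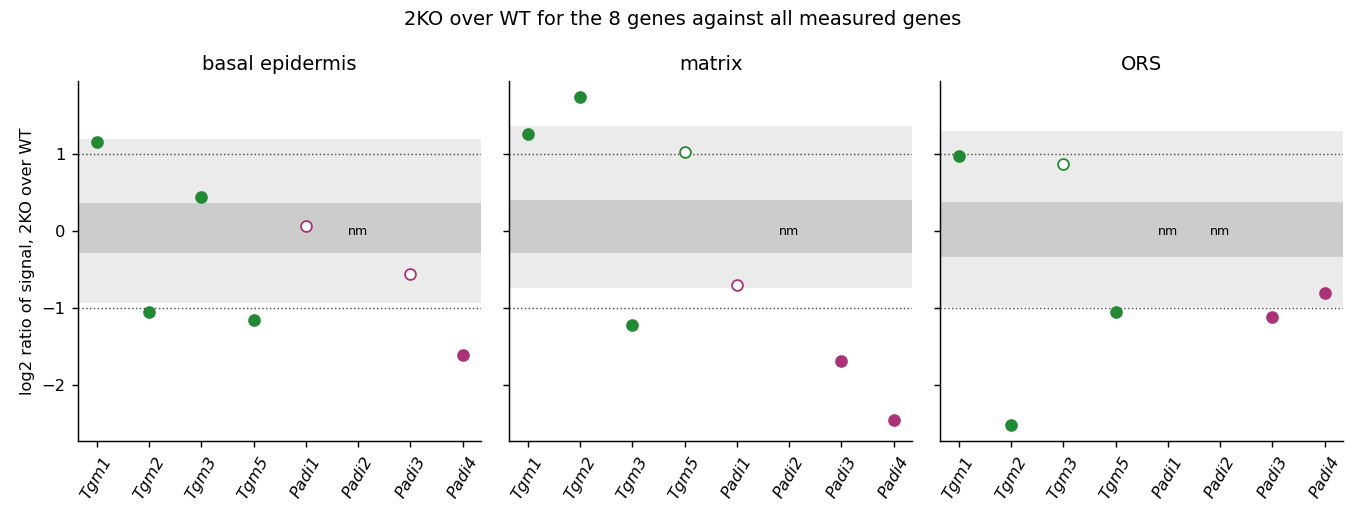
Log2 ratio of 2KO over WT for each gene in each population, against the ranges that hold 50% (dark band) and 90% (light band) of all measured genes; dotted lines mark 2-fold, open circles are bounds and nm means not measured. In matrix Padi4, Padi3 and Tgm3 lie below the light band and Tgm2 above it.

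The same genes were set against each other between populations in WT. Between matrix and ORS, Tgm3 was at least 13.9-fold, Padi3 13.5-fold and Padi4 5.30-fold higher in matrix, and Tgm2 was 25.7-fold and Tgm5 at least 3.48-fold lower, so 3 members were called higher and 2 lower where 8.6% and 13.9% of all genes were. Matrix was thus the bright population for Padi3 and Padi4 and the dim one for Tgm2 and Tgm5. Between basal epidermis and ORS, basal epidermis had at least 17.7-fold more Tgm3 signal, 4.36-fold less Tgm2 and 2.51-fold less Padi3, that is 1 higher and 2 lower where 4.15% and 5.88% of genes were. Between basal epidermis and matrix, basal epidermis had 5.89-fold more Tgm2 and at least 2.67-fold more Tgm5 signal, 33.8-fold less Padi3 and 3.41-fold less Padi4, or 2 higher and 2 lower beside 13.8% and 11.3%. Between matrix and ORS all 5 measured probe sets of Tgm2 were lower in matrix, by 3.81-fold to 25.7-fold. On the other probe set of Tgm3 the folds over ORS were at least 2.57 for matrix and at least 2.99 for basal epidermis. These 3 comparisons share arrays with each other and with those between genotypes.

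Fewer members differed between the populations of 2KO. Between matrix and ORS, Tgm3 was 3.25-fold and Padi3 9.04-fold higher in matrix and 0 members were lower, beside 5.2% and 8.61% of genes. Between basal epidermis and ORS, Tgm3 alone was called, 13.2-fold higher in basal epidermis, beside 4.32% of genes higher and 6.73% lower. Between basal epidermis and matrix, Tgm3 was 4.05-fold higher and Padi3 at least 15.4-fold lower in basal epidermis, beside 7.29% and 6.9%. On the other probe set of Tgm3 the fold was 1.58 between matrix and ORS and 1.83 between basal epidermis and matrix, so these calls rest on the brighter probe set, and it was 2.90 between basal epidermis and ORS. Tgm2, Tgm5 and Padi4, each called in at least 2 of the WT comparisons, reached 2-fold in none of these.

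The fold between a gene's highest and lowest population gives the same contrast in 1 number per genotype, a measure added after the values were seen. That of Tgm2 was 25.7-fold in WT and 1.58-fold in 2KO. With all 6 of its probe sets averaged the folds were 9.33 and 1.14, narrowed by the probe set that lay under the floor on all arrays. Padi4 went from 5.30-fold to 1.90-fold and Tgm5 from at least 3.48-fold to 1.72-fold. Padi3 and Tgm3 kept wide differences, at 33.8-fold in WT and at least 15.4-fold in 2KO for Padi3 and at least 17.7-fold and 13.2-fold for Tgm3. With its 2 probe sets averaged, those of Tgm3 were at least 7.26-fold and 6.18-fold.

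A smaller span in 2KO was common on these arrays. Of 3651 genes with a span of at least 2-fold in WT, 86.4% had a smaller one in 2KO, and their median went from 2.99-fold to 2.05-fold. Choosing genes by a wide span in WT favours that direction, and of the 2684 genes chosen by a span of at least 2-fold in 2KO, 52.7% had the smaller span in 2KO. Over all 11326 genes measured in both genotypes the share was 59.8%. The spans of Tgm2, Tgm5 and Padi4 are given as descriptions beside these shares.

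**Figure D4:**
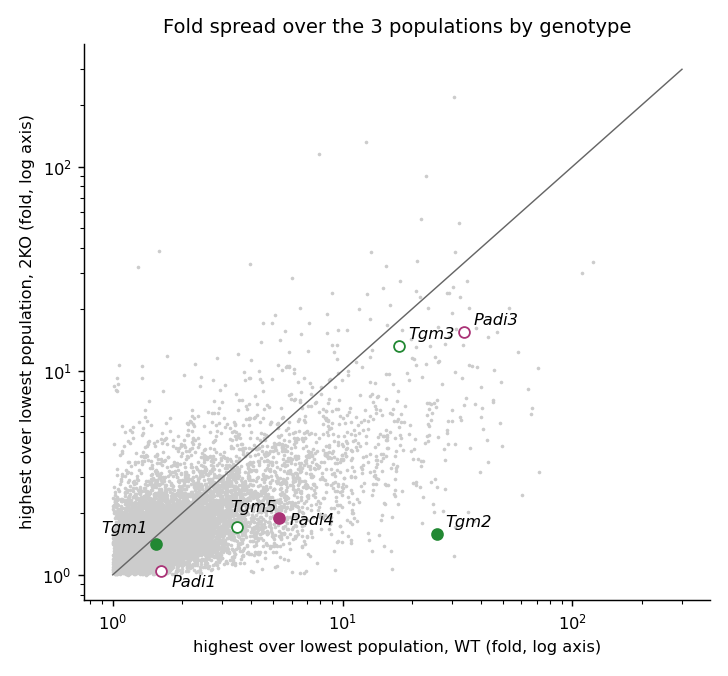
Fold between the highest and the lowest of the 3 populations in WT (x, log axis) and in 2KO (y, log axis), with grey points for all 11326 genes, green circles for transglutaminases, purple circles for deiminases, open where a side is a bound, and a line where the genotypes are equal. Tgm2 lies far under the line, at 25.7-fold in WT and 1.58-fold in 2KO, while Tgm3 stands at 13.2-fold and Padi3 at least 15.4-fold in 2KO.

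For each member with enough signal, the genes most like it were those with the highest Pearson r of log2 signal over the 6 arrays, among 6003 genes. The 6 arrays share populations and genotypes, so each r is a description. Tgm1 was most like Polk (r = 0.998), Limk1 (0.988) and Ccng1 (0.985), and Padi3 most like Senp1 (0.997), Pus10 (0.996) and Armc10 (0.995). Ccng1, a p53 target that encodes cyclin G1, read 2471 in basal epidermis of WT and 10831 in that of 2KO. It read 1646 and 5613 in matrix, and 2678 and 5918 in ORS. Ccng1 was picked by its likeness to Tgm1 on these same arrays, so its higher 2KO signal is not a separate result. The first genes for Tgm2 were Etfdh (0.985), Tmc6 (0.979) and Galnt2 (0.974), and for Tgm5 they were Btg2 (0.995), Chil1 (0.989) and Map1lc3a (0.984). For Tgm3 they were Sema4d (0.969), Wnt4 (0.955) and Oxsr1 (0.953), and for Padi4 Esf1 (0.993), Wdr76 (0.988) and Ebag9 (0.982). Between members, r was 0.91 for Tgm2 with Tgm5, 0.77 for Padi3 with Padi4 and -0.87 for Tgm1 with Padi4.

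The deiminase genes lie in a row on chromosome 4, in the order Rcc2, Padi6, Padi4, Padi3, Padi1, Padi2 and Sdhb in the RefSeq table. Lower signal in 2KO matrix was called at Padi4 and Padi3, while Padi6 and Padi2 were under the floor. The genes on the far sides did not share it, with log2 ratios in matrix of -0.23 for Rcc2 and -0.01 for Sdhb. Tgm6, near Tgm3 on chromosome 2, was above the floor in matrix alone, at 577.3 in WT and 355.6 in 2KO, 1.62-fold lower. Beside Tgm1 on chromosome 14, Tinf2 and Rabggta differed by at most 1.49-fold between the genotypes. Beside Tgm2 on chromosome 2, Rprd1b differed by at most 1.36-fold. Lbp, on the other side and 3 genes from Tgm2, took the direction of Tgm2 in each population. In 2KO it was 6.03-fold lower in basal epidermis, at least 1.49-fold higher in matrix and 3.69-fold lower in ORS. Near Tgm5, Adal was 2.10-fold lower and Lcmt2 1.59-fold lower in ORS of 2KO. Their log2 ratios were -0.15 and -0.30 in matrix, where Tgm5 was higher, and -0.79 and -0.03 in basal epidermis. Of the 5 other transglutaminase and deiminase genes matched (F13a1, Tgm4, Tgm6, Epb42 and Padi6), F13a1 was measured in all 3 populations and Tgm6 in matrix, and 0 of these measured ratios were called, while Tgm4 and Epb42 were under the floor on all arrays.

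The proteins on which these enzymes act were read from lists. Beside the counts of these and later lists stand the shares of all measured genes called between genotypes. These shares were 6.59% higher and 4.09% lower in basal epidermis, 9.03% and 1.62% in matrix, and 8.16% and 4.75% in ORS. Of 37 genes for substrates that transglutaminases join into the cornified envelope, 25 were measured in basal epidermis, and 11 were higher in 2KO and 2 lower, with a median log2 ratio of 0.63. Sprr2h, a small proline-rich protein, was 6.46-fold higher there (445.7 in WT, 2879 in 2KO), and Sprr1b 4.90-fold (1847 and 9051), beside higher Tgm1. The Sprr2h signal is from an _s_at probe set, a kind that can also detect related genes. In matrix 4 of 23 were higher and 2 lower, with Sprr1b 6.25-fold higher and Csta1 4.56-fold lower, and the median of 0.25 turned to -0.03 with arrays scaled to a common median and to -0.34 with hybridisation controls. For ORS the counts were 3 of 24 higher and 3 lower, with Sprr1a 3.95-fold lower and Sprr2d 3.15-fold higher. Flg, which encodes profilaggrin and is a substrate of both enzyme families, lay under the floor on all 2KO arrays and so was lower by at least 2.49-fold in basal epidermis, by at least 2.63-fold in matrix and by at least 2.16-fold in ORS.

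The inner root sheath and hair medulla hold the main substrates of Padi3 and Tgm3. Of 10 matched genes of these layers, lower signal in 2KO was called for 7 of 8 measured in basal epidermis, for 3 of 10 in matrix and for 6 of 8 in ORS, 1 was higher (Krt73 in matrix, by 3.66-fold), and the medians were -1.95, -0.68 and -1.49. Tchh, or trichohyalin, read 4985 in WT and 2273 in 2KO matrix, 2.19-fold lower, and 1674 and 542.2 in ORS, 3.09-fold lower. Trichohyalin, Padi3, Padi4 and Tgm3 were thus lower together in the matrix. The summed signal of the list was 41103 in WT and 36887 in 2KO matrix, a smaller difference than in the other populations, where it was 7758 and 1900 in basal epidermis and 7061 and 2295 in ORS. The matrix sums include Krt73, which went from 2625 in WT to 9619 in 2KO, while 8 of the 10 genes had log2 ratios below 0.

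Of 18 genes of the hair shaft, lower signal in 2KO was called for 5 of 14 measured in basal epidermis, for 2 of 17 in matrix and for 4 of 12 in ORS, and 1 was higher in each, with medians of -0.73, -0.37 and -0.75. Krt35, a keratin of the hair cortex, was lower by at least 10.7-fold in basal epidermis and by 7.11-fold in ORS. Msx2, a regulator of the hair matrix, was 2.78-fold lower in matrix. Of the 6 matched deiminase substrates of the epidermis, Krt1, Krt10 and loricrin among them, 5 were measured in basal epidermis and 4 each in matrix and ORS. In basal epidermis 2 were higher in 2KO and 1 lower, and in matrix and ORS 1 was higher and 1 lower. The lower gene was Flg each time. Medians of the measured genes were 0.29, 0.01 and -0.001 in the 3 populations. Those of matrix and ORS turned to -0.68 and -0.20 with arrays scaled to the hybridisation controls. In basal epidermis loricrin (Lor) was 3.41-fold higher and Krt2 2.65-fold higher.

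**Figure D5:**
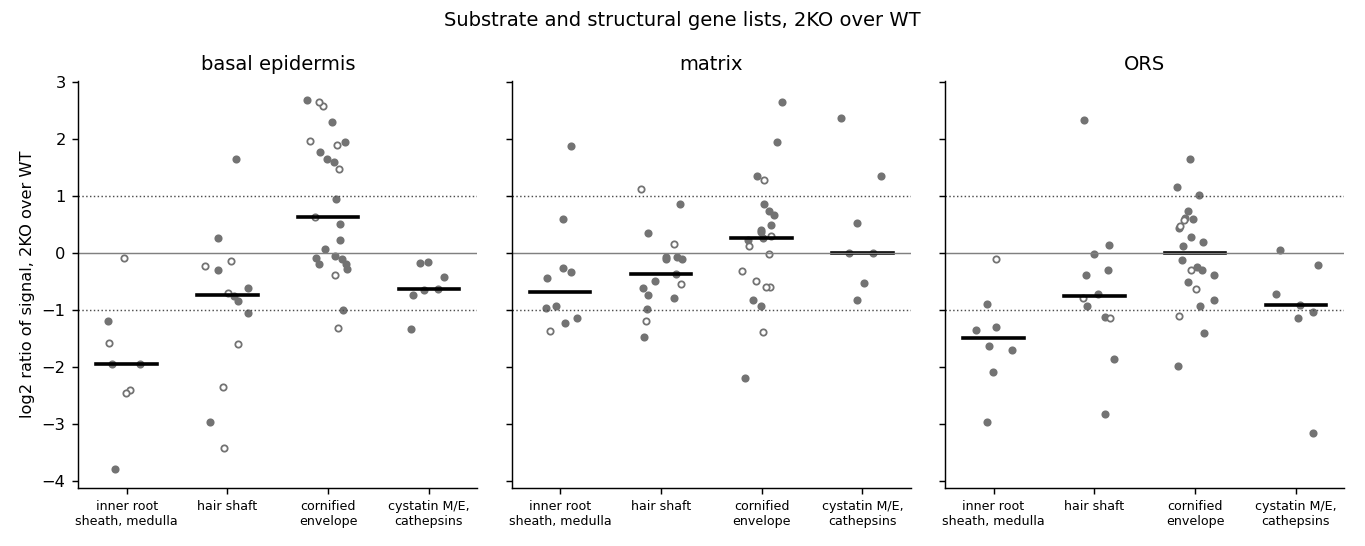
Log2 ratio of 2KO over WT for the measured genes of 4 lists in each population, 1 point per gene, open where the value is a bound, with bars at the median and dotted lines at 2-fold. The inner root sheath and medulla genes lie lowest in basal epidermis and ORS (medians -1.95 and -1.49), and cornified envelope genes spread widest upward in basal epidermis (median 0.63).

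Further lists covered other steps of cornification, with genes named by the size of their ratios. Cst6, or cystatin M/E, inhibits the protease cascade that processes Tgm3. It read 1863 in basal epidermis of WT and 741.4 in that of 2KO, 797.3 and 4097 in matrix, and 5190 and 583.2 in ORS. It was 2.51-fold lower, 5.14-fold higher and 8.90-fold lower in turn. Of the 7 genes of this cystatin and cathepsin list, 1 was lower in basal epidermis, 2 were higher in matrix and 3 were lower in ORS, with medians of -0.63, 0.00 and -0.92, that of matrix -0.69 with arrays scaled to the hybridisation controls. In the list of filaggrin breakdown and desquamation, basal epidermis had 3 of 9 higher and 3 lower, matrix had 2 of 9 higher and ORS had 3 of 8 lower, with medians of 0.07, 0.53 and -0.72, and under the same scaling that of matrix was -0.12. Klk7, a protease that sheds corneocytes, was 6.38-fold lower, 3.60-fold higher and 12.3-fold lower. Of the lipid envelope genes, those higher were 1 of 8 in basal epidermis and 3 of 8 in matrix (Cyp4f39 by 2.33-fold, Elovl4 by 2.24-fold and Cers3 by 2.06-fold) while 1 of 8 was lower in ORS, with medians of -0.17, 0.89 and -0.15, and under the same scaling 0 of 8 were called in matrix, with a median of 0.20.

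Markers of other cells moved with several of these results. Beside higher Tgm2 and Tgm5 in 2KO matrix, 7 of 11 measured immune genes, 9 of 10 fibroblast genes, 6 of 7 skeletal muscle genes, 5 of 11 basal layer genes, 6 of 11 suprabasal genes and 5 of 11 ORS genes were at least 2-fold higher, and 0 of these lists' genes were lower. Of all measured genes in matrix, 9.03% were higher and 1.62% lower. With arrays scaled to the hybridisation controls, 6 immune, 4 fibroblast, 4 muscle, 0 basal layer, 3 suprabasal and 4 ORS genes were higher there and 1 basal layer gene was lower. Under that scaling 432 of all 11765 measured genes were higher in 2KO matrix and 2559 were lower. Pdgfra among the fibroblast genes, Cd3e, Cd3g and Aif1 among the immune genes and Ckm and Myh4 among the muscle genes were under the floor in 2KO matrix. Beside lower Padi3, Padi4 and Tgm3 in matrix, 5 of 11 hair matrix genes were lower and 1 was higher, and their summed signal went from 44747 to 31177. Beside lower Tgm2 in ORS, 6 of 7 sebocyte genes were lower and their summed signal went from 34553 to 9079, with Mc5r under the floor on the 2KO array. Beside lower Tgm2, Tgm5 and Padi4 in basal epidermis, 3 of 6 measured sebocyte genes were lower, with summed signal of 9118 in WT and 5211 in 2KO and Mc5r under the floor on each array. There 3 of 10 measured immune genes were lower too, with summed signal of 10259 and 7971. On the Merkel cell list, summed signal was 383.2 in WT and 3299 in 2KO basal epidermis, 248.9 and 1745 in matrix and 851.1 and 4488 in ORS, with Atoh1 under the floor on all 6 arrays, beside Tgm1, which was higher on each of these 2KO arrays. The part of each of these in the result it stands beside was not tested.

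Of the endothelial genes, 0 of 5 measured were called in matrix, 1 of 7 was higher in basal epidermis and 2 of 8 were higher in ORS. Melanocyte genes summed to 3314 in WT and 2239 in 2KO matrix, 1574 and 936.6 in basal epidermis and 1752 and 1557 in ORS. Hba-a1 and Alas2, of red blood cells, were under the floor on all 6 arrays.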

How the data were processed

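RNA from FACS-purified cells was labelled with biotin by in vitro transcription and hybridised to Affymetrix arrays, per the labels' protocols. The series text names the array MOE430A 2.0 in 1 place and MOE430v2 in another. The deposited values are linear intensities, 1 MAS5 signal per probe set and array, per the submitters' processing notes, made from background-subtracted images per the series text. Its version, and any detection calls, are not given in the sources used here. Each deposited array has a mean of 500.0 once the lowest and highest 2% of signals are trimmed, so each had been scaled to the same trimmed mean. Such scaling hides a shift of most genes in 1 direction.

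Of 45101 probe sets, 64 controls, 932 with several genes and 9160 with none were left out, leaving 34945 for 18193 genes. The RefSeq table of GRCm38.p6, used for names and neighbour order, held 99.4% of the gene IDs and changed 0 symbols. The probe set brightest on average over the arrays (mean log2 signal) stood for its gene. Signals under 83.2 were raised to that floor, and log2 ratios were called at 2-fold. The groups hold 1 array each, no test was made, and the number of arrays limits the precision. An additive fit of genotype and population would leave 2 residual degrees of freedom, but it would treat populations as replicates of a genotype and was not run. The members, 21 gene lists (215 of 243 genes matched) and rules were chosen with earlier results of these data known. All members were named, with up to 4 genes per list and comparison by the size of the ratio and the 3 genes most like each member. Others were chosen after their values were seen. Alternatives were 3 other scalings, 2 other floors and 2 other choices of probe set. Promoter windows came from RefSeq's GRCm38.p6. The calling was tested on simulated data, with changes well past 2-fold put into genes well above the floor. That test does not address calls near 2-fold or near the floor. Python 3.11.15 with numpy 2.4.6, pandas 2.3.3 and matplotlib 3.10.9 was used.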

Additional observations from a re-analysis of the deposited data

Results flagged for a closer look

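Tgm2 and Tgm5 went opposite ways in different populations, with higher signal in 2KO in matrix and lower signal in 2KO in basal epidermis and ORS, each past 2-fold. For Tgm2 the log2 ratio in matrix exceeded that in basal epidermis by 2.80 and that in ORS by 4.26. For Tgm5 the same differences were 2.20 and 2.08, where the matrix ratio is a lower bound. With 1 array per group these differences between populations were not tested. In ORS the direction for Tgm2 was shared by all 5 of its probe sets above the floor, and in basal epidermis by 4 of the 5.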

How the results depend on the processing

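For the 13 calls between genotypes, the 7 alternatives gave 85 values. Of these, 75 stayed past 2-fold, 10 kept their direction under it and none reversed. Many of the 75 could not have moved, so they are not a count of separate checks. Tgm1, Tgm5, Padi3 and Padi4 have 1 probe set each, so other choices of probe set returned the main value. Leaving out _s_at, _x_at and _a_at probe sets also left Tgm2 unchanged, since it has no other kind. The lower floor could not change a call with both signals above the main floor. Calls at Padi3 and Padi4, at Tgm1 in basal epidermis, at Tgm2 in ORS and matrix and at Tgm5 in basal epidermis and ORS held in every alternative that gave a value. With a floor at the 75th percentile (464.7), members called were 0 lower in basal epidermis, 0 higher in matrix and 1 lower in ORS between genotypes, and in WT 1 lower between basal epidermis and ORS, 0 higher between basal epidermis and matrix and 1 lower between matrix and ORS; most dim members were then not measured. With a floor at the 25th percentile (21.2), 2 members each were higher in basal epidermis and in ORS, Padi2 among both. Quantile normalization left 1 member higher in ORS, Tgm1, and Padi4 was past 2-fold lower in ORS under all 3 other scalings (-1.01 to -1.06). Scaling to equal medians, or to the hybridisation controls, left 1 member each higher in matrix, Tgm2. These scalings moved the median gene in matrix to -0.24 and -0.64 and the share of calls that were higher there from 84.8% to 55.3% and 14.4%, in basal epidermis from 61.7% to 52.2% and 55.9%, and in ORS from 63.2% to 39.1% and 44.5%. No paired analysis was possible because the groups, of 1 array each, share fewer than 2 replicate numbers; populations as pairs of WT and 2KO were not fitted, since populations are not replicates. Signal over background limits Padi1, Padi2 and Tgm5 most.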
